A study of Mus musculus with 6 samples.

Results

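Solute carriers are the membrane proteins that move nutrients, ions and metabolites into cells and between their compartments, and their genes carry symbols that begin with Slc. Among the 54532 genes in the deposited RNA-seq table of sorted mouse LSK cells, 371 protein-coding genes had such a symbol. The 142 described here were those with a mean of at least 2 FPKM (fragments per kilobase of gene and per unit of library size) over the 6 libraries. LSK cells are lineage-negative, Sca-1+, c-Kit+ bone marrow cells, the fraction that holds haematopoietic stem cells and early progenitors. The members were grouped by substrate, with 32 carriers of the mitochondrial Slc25 family, 20 for metals, 19 for amino acids, 18 of the nucleotide sugar family, 13 for inorganic ions, 10 for glucose and related sugars, 6 for vitamins and cofactors, 5 each for nucleosides, monocarboxylates, and lipids and choline, and 9 others. The symbols of 4 members (*Slc7a6os*, *Slc4a1ap*, *Slc9a3r1* and *Slc9a3r2*) name neighbours or binding partners of carriers rather than carriers.

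The study compared 3 libraries of *Myh9*-deficient LSKs with 3 control libraries in order to ask how loss of non-muscle myosin heavy chain IIA changes gene expression in these cells. *Myh9*-deficient cells came from *Myh9* fl/fl;*Mx1*-cre mice and control cells from *Myh9* fl/fl littermates with no Cre, both on C57BL/6 and both given poly I:C at 5 mg/kg, so both groups carried the floxed alleles and had met the inducer. Mice were genotyped at 4 to 5 weeks of age and induced at 5 to 6 weeks, and 100000 LSK cells were sorted for each set 4 days after the first dose. The *Mx1* promoter is driven by interferon and is not limited to haematopoietic cells, and because only the deleted group carried Cre, an effect of Cre itself and one of the deletion cannot be told apart. How many mice gave each set is not stated in the sources used here.

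Each library held 17571544 to 19894562 reads on genes, and the member with the fewest reads still had 82 in its lowest library. *Myh9*, the targeted gene, fell from 22.5 ± 0.495 to 18.7 ± 1.18 FPKM (SD, n = 3 in each group), a log2 fold change of -0.26 (adjusted p = 0.00642 by limma with Benjamini-Hochberg adjustment, the test used for every adjusted p given here). The floxed part is exon 1, and neither the reads of single exons nor the completeness of deletion was tested. The LSK marker *Ly6a* had means of 95.4 FPKM in control and 89.5 FPKM after deletion, a log2 fold change of -0.09 (adjusted p = 0.0833). *Kit* was lower, with means of 23.9 and 21.5 FPKM and a log2 fold change of -0.14 (adjusted p = 0.0105). Markers of other lineages differed between the groups: 15 of 15 erythroid genes tested were higher in *Myh9*-deficient LSKs (summed level 694 to 695 FPKM against 1185 to 1227 after deletion), as were 7 of 8 megakaryocyte genes (150.5 to 157 against 231 to 242 FPKM) and 6 of 8 mast cell and basophil genes (143 to 155 against 207 to 215 FPKM), and 13 of 14 neutrophil and monocyte genes were lower (10740 to 10806 against 6097 to 6208 FPKM). Of 7 B and plasma cell genes tested 3 were higher and 2 lower (133 to 139 against 156 to 161 FPKM), with *Jchain* going from a mean of 30.4 to 64.0 FPKM while *Pax5* and *Ebf1* stayed under 1 FPKM in every library. *Mzb1* (4.58 to 8.99 FPKM) and *Cd79a* (0.743 to 1.52 FPKM) were the others higher. The 2 lower were *Xbp1* (63.2 to 50.6 FPKM) and *Sdc1* (3.31 to 2.26 FPKM). Of 6 T and NK cell genes tested 4 were higher and 1 lower (371 to 383 against 349 to 352 FPKM). *Ccl5* went from 10.1 to 35.5, *Gzmb* from 5.04 to 15.9, *Trbc2* from 1.22 to 6.13 and *Nkg7* from 353 to 279.6 FPKM, while *Cd8a* stayed under 1 FPKM and *Cd3e* was listed at 0 in each control and at 0.183, 0.282 and 0.237 FPKM after deletion. Of 8 LSK identity genes tested 3 were higher and 1, *Kit*, was lower. The 3 were *Flt3* (19.8 to 30.1 FPKM), *Procr* (2.80 to 5.09 FPKM) and *Hlf* (3.73 to 5.16 FPKM). The part of these shifts in the carrier values below was not tested. In bulk RNA, fewer cells of a type and less RNA per cell cannot be told apart.

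Stem and progenitor cells must import amino acids, sugars, nucleosides, vitamins and metals to make protein, DNA and haem, and carriers set which of these pass each membrane. Plasma membrane carriers such as those of the Slc1, Slc2, Slc7 and Slc38 families control uptake, the Slc25 carriers of the inner mitochondrial membrane exchange nucleotides, phosphate and metabolites with the matrix, and the Slc39 and Slc30 families move zinc into and out of the cytosol. Erythroid cells are known for a heavy demand for iron and for glycine, both of which reach the mitochondrial site of haem synthesis through Slc25 carriers.

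Of the 142 members, 67 passed an adjusted p under 0.05, with 40 up (28.2%) and 27 down (19%) after deletion of *Myh9*. The called share, 47.2%, lay near that of all genes tested (40.5% of 11552, with 19.9% higher and 20.6% lower) and nearer still to that of protein-coding genes of the same minimum level (45.4% of 8765, with 21.2% higher and 24.1% lower). The share called in either direction is therefore no result about carriers. Counts for single families and gene lists below are to be read beside these shares. The 3 libraries of one group lay wholly to one side of the other for 77 members (44 higher and 33 lower), or 54.2%, where all genes tested gave 54% (25.5% and 28.5%) and protein-coding genes of that level 59.2%. The median log2 fold change of the members was 0.024, against -0.0096 over all genes tested, and their median absolute log2 fold change of 0.154 was that of genes in general (0.152). Every fold change here is on the log2(FPKM + 1) scale, which understates changes of low genes, and a number set before an adjusted p in parentheses is such a log2 fold change. Most changes were small. A called difference of over 1.5-fold on the log2(FPKM + 1) scale was seen for 6 members (4.23%, against 5.69% of all genes tested), of which 5 were higher and 1 lower, against 3.24% and 2.45% of all genes. A called difference of over 2-fold on that scale was seen for 1 member and for 2.09% of all genes. Leaving out any 1 library lowered both counts, to between 25 and 31 higher (25 without control 1) and between 18 and 24 lower. The counts over all genes tested fell too. They went from 2295 higher and 2378 lower to between 1784 and 2043 higher and between 1758 and 2065 lower.

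**Figure D1:**
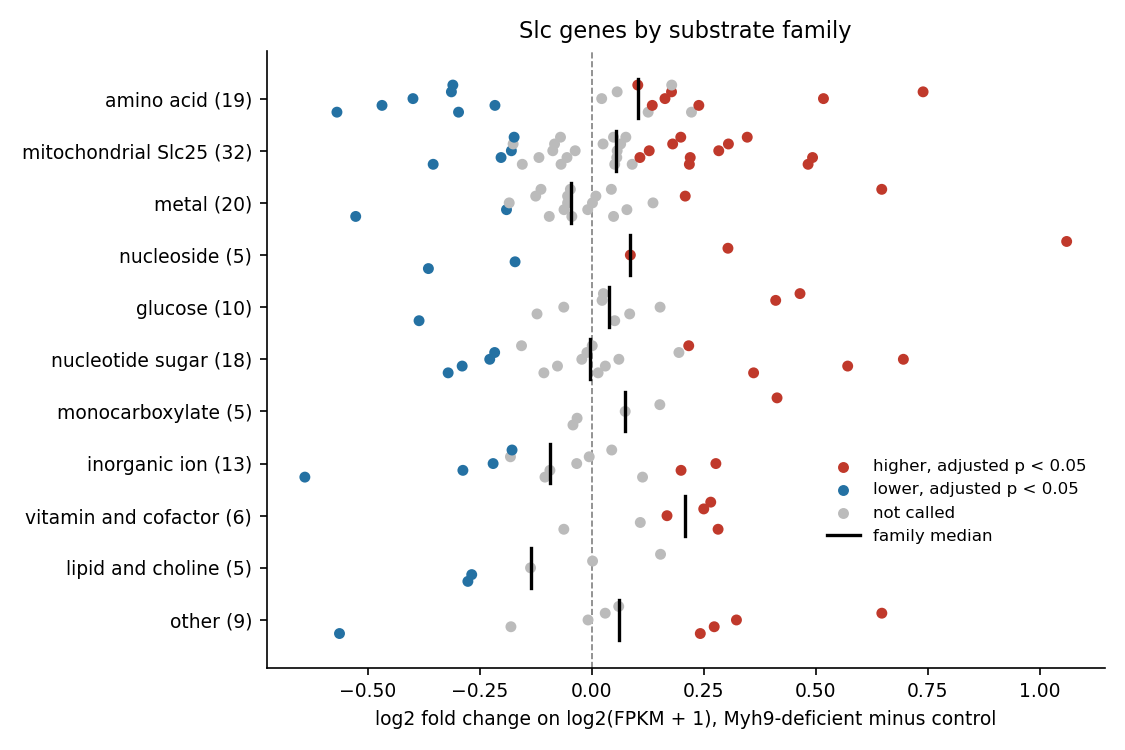
Log2 fold change on the log2(FPKM + 1) scale, *Myh9*-deficient minus control, for the 142 members by substrate family, with family sizes in parentheses, 1 point per gene and a black bar at each family median. Amino acid and nucleoside carriers spread to both sides of 0, while 16 of the 20 metal carriers were not called.

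All 5 nucleoside carriers passed the test, 3 higher and 2 lower, where 40.5% of all genes tested passed in either direction. Leaving out 1 library at a time left 1 to 2 higher and 1 to 2 lower. The gene with the largest response among all members was 1 of these 5 carriers. These proteins bring in nucleosides for the salvage of purines and pyrimidines. *Slc28a2* (chr2:122426477-122461137, mm10), the sodium-coupled carrier that concentrates purine nucleosides in cells, measured 13.6, 14.7 and 14.9 FPKM in the control libraries and 30.1, 32.3 and 30.9 FPKM in the *Myh9*-deficient ones. Every *Myh9*-deficient library stood far above every control, with a wide gap between the groups. Its mean rose from 14.4 ± 0.745 to 31.1 ± 1.11 FPKM (SD, n = 3), a ratio of 2.16 and a log2 fold change of 1.06 ± 0.047 (SE, adjusted p = 1.77e-05). The equilibrative carriers, which let nucleosides flow down their gradient, moved far less. *Slc29a2* measured 3.54, 2.94 and 3.71 FPKM in control libraries and 4.75, 4.17 and 4.33 FPKM after deletion (log2 fold change 0.30 ± 0.083, adjusted p = 0.0259). *Slc29a1*, the most abundant of the equilibrative carriers, measured 23.4, 23.6 and 24.1 FPKM in control libraries and 25.2, 25.5 and 25 FPKM after deletion (log2 fold change 0.09 ± 0.028, adjusted p = 0.0480). Neither pair of groups overlapped, but the calls were fragile: leaving out any single library took *Slc29a1* to an adjusted p of 0.0688 to 0.137, and 4 of the 6 omissions (control 1 or 2, *Myh9*-deficient 1 or 3) took *Slc29a2* to 0.0520 to 0.0802. Quantile normalization, rescaling to the same sum, moderation without a trend and a replicate block took *Slc29a1* to 0.0823 to 0.118. No filter on low values and no moderation of the variance took *Slc29a2* to 0.0682 to 0.0746. The purine nucleobase carrier *Slc43a3* fell from 24.2, 24.1 and 24.9 to 21.3, 21.2 and 22.3 FPKM (-0.17, adjusted p = 0.00730), and *Slc29a3*, the equilibrative carrier of lysosomal membranes, fell from 6.55, 6.19 and 6.16 to 5.37, 4.61 and 4.09 FPKM (-0.37, adjusted p = 0.0144, or 0.0511 without control 1). In both, the lowest control library lay above the highest *Myh9*-deficient one. Summed over the 5 genes, nucleoside carrier expression went from 72.2 ± 1.37 to 87.0 ± 0.635 FPKM, and without *Slc28a2* from 57.8 ± 1.01 to 55.9 ± 0.618 FPKM.

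Amino acid carriers were divided, with 7 of 19 members higher and 7 lower, where 19.9% of all genes tested were higher and 20.6% lower. *Slc38a5* (chrX:8271133-8280179), a system N carrier of glutamine, asparagine and histidine, measured 6.15, 7.14 and 5.79 FPKM in control libraries and 10.7, 11.6 and 11.5 FPKM after deletion. The groups were far apart, with a mean of 6.36 ± 0.70 against 11.3 ± 0.518 FPKM and a log2 fold change of 0.74 ± 0.074 (adjusted p = 4.98e-04). *Slc7a8*, a light chain for exchange of neutral amino acids, stood at 4.06, 4.17 and 3.96 FPKM in control libraries and at 6.1, 6.83 and 5.84 FPKM after deletion (log2 fold change 0.52 ± 0.061, adjusted p = 0.00100). Here too the groups did not overlap, although *Myh9*-deficient library 2 stood above the others.

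The heteromeric exchanger of large neutral amino acids, which imports leucine in exchange for glutamine, rose in both of its chains by a modest amount. Its light chain *Slc7a5* measured 32, 33.4 and 33.4 FPKM in control libraries and 35.9, 37 and 38 FPKM after deletion (log2 fold change 0.16 ± 0.034, adjusted p = 0.00990). Its heavy chain *Slc3a2*, the most abundant amino acid carrier gene measured, stood at 51.7, 51.4 and 52.5 FPKM and 57.9, 56.1 and 57.2 FPKM in the same order (log2 fold change 0.13 ± 0.026, adjusted p = 0.00674, or 0.0537 after quantile normalization). Both changes were near 0.15 on the log2 scale with tight replicates. *Slc1a5*, which imports the glutamine that the exchanger uses, rose from 44.6 ± 0.353 to 47.9 ± 0.661 FPKM (0.10, adjusted p = 0.0183), but the call was lost at 0.0504 to 0.0572 without any 1 of the 3 control libraries or *Myh9*-deficient library 1. The *Slc1a5* call was also lost, at 0.0559 to 0.0580, after quantile normalization or rescaling to the same sum. *Slc6a6*, the taurine carrier, rose from 6.67 ± 0.505 to 8.04 ± 0.363 FPKM (0.24, adjusted p = 0.0200) and lost the call at 0.0573 to 0.0642 without control 1, control 3 or *Myh9*-deficient 2.

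Other amino acid carriers fell by up to 37.2% of the control mean. *Slc36a1* (chr11:55204350-55236330), which exports small amino acids together with protons from lysosomes, fell from 7.41, 6.64 and 6.94 to 4.48, 4.69 and 4.0 FPKM (log2 fold change -0.57 ± 0.065, adjusted p = 8.76e-04). *Slc38a7*, a lysosomal carrier of glutamine and asparagine, fell from 5.81, 5.41 and 5.19 to 3.59, 3.93 and 3.5 FPKM (-0.47, adjusted p = 0.00141). For both, every *Myh9*-deficient library lay well below the lowest control. *Slc43a2*, a facilitative carrier of large neutral amino acids, fell from 2.94, 3.01 and 2.91 to 1.83, 2.28 and 1.89 FPKM (-0.40, adjusted p = 0.00597). Its exons share 9.18% of their bases with *Gm45606* on the opposite strand, and whether counting used strand is not given in the sources used here. The sodium-coupled importer *Slc38a2*, known to be induced when cells are short of amino acids, fell from 21, 19.6 and 19.4 to 16.9, 17.7 and 16.5 FPKM (-0.22, adjusted p = 0.00905). The remaining carriers called lower, *Slc38a10*, *Slc15a4* and *Slc16a10*, had log2 fold changes of -0.30 to -0.31. The summed level of the family went from 268 ± 1.26 to 277 ± 0.451 FPKM.

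Among 14 genes of the response to amino acid shortage, fixed as a list beside the carriers, 11 were tested, and 6 of these were higher and 1 lower (median log2 fold change 0.16), where 19.9% of all genes tested were higher and 20.6% lower. The transcription factors at the centre of this response were not called, *Atf4* at 115 ± 3.28 and 115 ± 6.11 FPKM (0.00, adjusted p = 0.966) and *Ddit3* at 13.6 ± 0.731 and 11.5 ± 1.58 FPKM (-0.23, adjusted p = 0.0835). *Asns*, asparagine synthetase, rose from 9.61 ± 0.129 to 19.1 ± 0.648 FPKM (0.92, adjusted p = 1.33e-05) and *Ddit4*, an inhibitor of mTORC1 signalling, from 16.9 ± 1.28 to 33.7 ± 2.18 FPKM (0.95, adjusted p = 1.13e-04). *Atf3*, a stress-induced transcription factor, fell from 14.1 ± 0.82 to 1.93 ± 0.243 FPKM (-2.37, adjusted p = 4.96e-06).

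Promoter sequence was read for the members to search for the E-box, the site bound by basic helix-loop-helix factors such as Myc and TFEB. RefSeq windows of 250 bases before to 50 after the start (GRCm38.p6) were matched for 110 of the 142 members by symbol. The palindromic E-box CACGTG, which reads the same on both strands, was present in 23 of these windows (20.9%), against 12.6% of 7009 windows of protein-coding genes tested with the same minimum level and 8.09% of 27025 genes in the RefSeq promoter table. It stood in 7 of 33 windows of members called higher (21.2%), 6 of 22 called lower (27.3%) and 10 of 55 not called (18.2%). The motif was thus found among members that went up, members that went down and members that did neither. Other motifs were searched on both strands. TGATGNAA, the C/EBP-ATF composite, stood in 1 window (*Slc50a1*), and TGCNCNC, the metal response element, in 72 of the 110 (65.5%), close to the 63.7% of protein-coding genes. The sequences below show the E-box in capitals, on the strand of the gene, in the 3 called members with the largest falls and the 3 with the largest rises among those that hold it before the start. They are from GRCm38.p6, *Slc36a1* (chr11:55204252-55204339, plus strand, motif beginning 31 bases before the start), *Slc22a4* (chr11:54028270-54028354, minus strand, 228 bases), *Slc38a7* (chr8:95853492-95853582, minus strand, 34 bases), *Slc38a5* (chrX:8271294-8271380, plus strand, 30 bases), *Slc41a3* (chr6:90618996-90619095, plus strand, 213 bases) and *Slc25a33* (chr4:149774268-149774332, minus strand, 8 bases). The RefSeq starts of *Slc38a7*, *Slc38a5*, *Slc41a3* and *Slc25a33* lie inside the gene bounds given by the table. A match of letters is a description of the window and not a measured binding site.
Slc36a1: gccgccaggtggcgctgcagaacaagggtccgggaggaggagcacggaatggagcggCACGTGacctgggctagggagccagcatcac
Slc22a4: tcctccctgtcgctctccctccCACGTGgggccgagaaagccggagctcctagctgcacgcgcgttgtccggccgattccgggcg
Slc38a7: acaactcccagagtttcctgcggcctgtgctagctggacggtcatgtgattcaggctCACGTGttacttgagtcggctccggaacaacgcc
Slc38a5: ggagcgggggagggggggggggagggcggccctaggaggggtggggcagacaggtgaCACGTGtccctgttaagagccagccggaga
Slc41a3: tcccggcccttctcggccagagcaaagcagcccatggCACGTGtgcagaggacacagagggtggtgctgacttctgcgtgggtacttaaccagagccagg
Slc25a33: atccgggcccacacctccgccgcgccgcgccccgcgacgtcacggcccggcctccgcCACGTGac

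**Figure D2:**
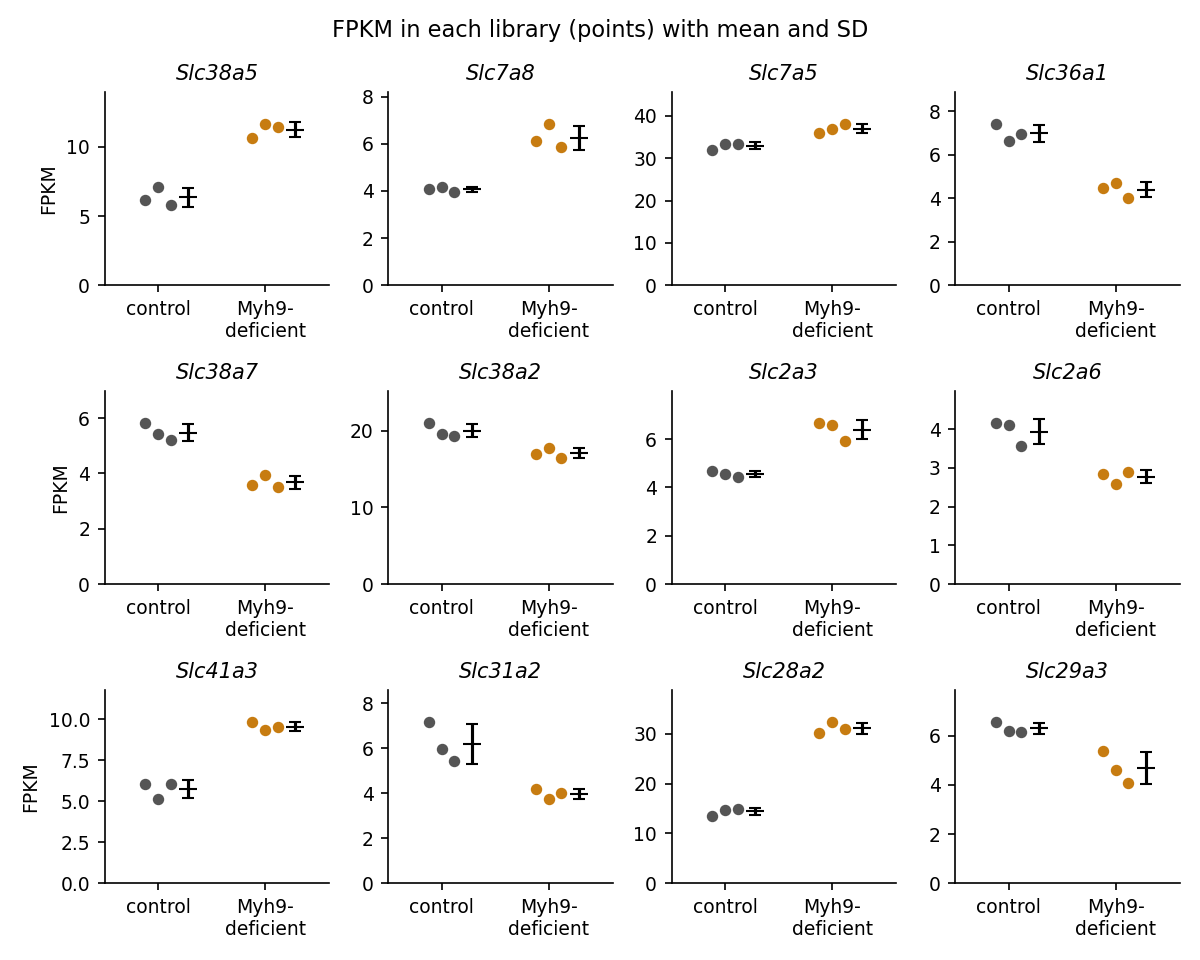
FPKM in each of the 6 libraries (points, linear axes from 0), with the mean and SD of each group beside them, for 12 members of the amino acid, glucose, metal and nucleoside families. All 12 were chosen from called members, none of which had overlapping groups, so the lack of overlap in every panel follows from that choice. Of all genes tested, 54% did not overlap. Slc28a2, Slc38a5 and Slc41a3 were higher in all *Myh9*-deficient libraries and Slc36a1, Slc38a7 and Slc31a2 lower.

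Carriers of glucose and related sugars were mostly level, with 2 of 10 members higher and 1 lower. *Slc2a1*, the widely expressed glucose importer, measured 7.3, 7.32 and 7.5 FPKM in control libraries and 7.66, 6.84 and 6.59 FPKM after deletion. These ranges overlapped (log2 fold change -0.06 ± 0.057, adjusted p = 0.421). The high-affinity glucose importer *Slc2a3* was higher in every *Myh9*-deficient library, at 6.65, 6.59 and 5.93 FPKM against 4.66, 4.57 and 4.44 FPKM in control (log2 fold change 0.41 ± 0.054, adjusted p = 0.00156). *Slc2a6*, a member of the same family found on lysosomes, fell from 4.15, 4.1 and 3.55 to 2.84, 2.58 and 2.9 FPKM (-0.39, adjusted p = 0.00570). *Slc45a3*, of a family of proton-coupled sugar carriers, rose from 9.1, 7.99 and 8.28 to 12.2, 12.1 and 11.8 FPKM (0.46, adjusted p = 7.56e-04). The most abundant gene of this family was *Slc50a1*, a sugar efflux carrier, at 46.8 ± 0.908 FPKM in control libraries and 48.5 ± 1.41 FPKM after deletion (0.05, adjusted p = 0.246).

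Lactate and pyruvate cross the plasma membrane through the Slc16 family, of which 5 members were measured as monocarboxylate carriers and 1 rose. *Slc16a1*, the main carrier by level, had means of 24.4 ± 0.635 and 25.7 ± 1.58 FPKM (0.07, adjusted p = 0.272), while *Slc16a11*, linked to pyruvate transport and lipid metabolism, rose from 4.93 ± 0.12 to 6.91 ± 0.502 FPKM (0.41, adjusted p = 0.00193).

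The mitochondrial Slc25 family held the most abundant carrier of all, and 11 of its 32 members were higher and 4 lower. *Slc25a5* (chrX:36795651-36798807), an adenine nucleotide translocase that exchanges matrix ATP for cytosolic ADP, gave 27.5 to 28.1% of the summed FPKM of all 142 members in control libraries and 29.4 to 30.5% after deletion. It measured 729, 714 and 736 FPKM in control libraries and 844, 813 and 844 FPKM after deletion. Each *Myh9*-deficient library exceeded every control, with a mean of 726 ± 11.3 against 834 ± 17.6 FPKM and a log2 fold change of 0.20 ± 0.025 (adjusted p = 0.00139). Processed copies of *Slc25a5* are known, and the treatment of reads that map to more than 1 place is not given in the sources used here.

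The next most abundant, *Slc25a3* and *Slc25a4*, were named after their values were seen. *Slc25a3*, the phosphate carrier that supplies ATP synthase, rose from 136 ± 1.57 to 158 ± 2.75 FPKM (0.22, adjusted p = 7.62e-04), and *Slc25a4*, another adenine nucleotide translocase, from 93.3 ± 3.37 to 106 ± 2.25 FPKM (0.18, adjusted p = 0.00662). These 3 genes summed to 956 ± 12.2 FPKM in control and 1098 ± 17.9 in *Myh9*-deficient LSKs. The other 29 summed to 405 ± 2.38 and 403 ± 2.48 FPKM, so the higher total of the family lay with the 3 most abundant genes.

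Larger relative rises were found among less abundant mitochondrial carriers. *Slc25a20*, which imports acylcarnitines for fatty acid oxidation, measured 7.88, 8.29 and 7.85 FPKM in control libraries and 11.3, 12.2 and 11.5 FPKM after deletion (log2 fold change 0.49 ± 0.044, adjusted p = 2.99e-04). *Slc25a21*, the carrier of oxoadipate, stood at 1.68, 1.84 and 1.75 and 2.9, 2.88 and 2.78 FPKM (0.48, adjusted p = 0.00103), with a control mean under 2 FPKM, so that the *Myh9*-deficient libraries brought it over the minimum. The replicates of both genes were tightly grouped. *Slc25a38*, the glycine carrier that feeds haem synthesis, rose from 11.4, 10.1 and 10.4 to 13.6, 13.6 and 12.9 FPKM (0.30, adjusted p = 0.00441). *Slc25a33*, a pyrimidine nucleotide carrier, rose from 4.32, 5.26 and 5.66 to 6.68, 7.15 and 6.29 FPKM (0.35, adjusted p = 0.0228), and was not called without *Myh9*-deficient library 1 or 2 (0.0610 to 0.0662). Of the mitochondrial carriers called lower, the iron importer *Slc25a37*, mitoferrin-1, fell from 11.4, 11.1 and 11.2 to 9.86, 9.21 and 9.84 FPKM (-0.20, adjusted p = 0.00805), a direction opposite to that of *Slc25a38* and of the erythroid markers. *Slc25a1*, which exports citrate for lipid synthesis, fell from 48.6 ± 1.4 to 42.8 ± 1.41 FPKM (-0.18, adjusted p = 0.00839). *Slc25a25*, a calcium-regulated carrier of ATP-Mg and phosphate, fell from 2.74, 2.98 and 2.47 to 1.64, 2.25 and 1.89 FPKM (-0.35, adjusted p = 0.0260). Its mean after deletion was under 2 FPKM, so that the control libraries brought it over the minimum. The call of *Slc25a25* was lost at 0.0680 to 0.0827 without control 1 or 2 or *Myh9*-deficient 1 or 3.

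**Figure D3:**
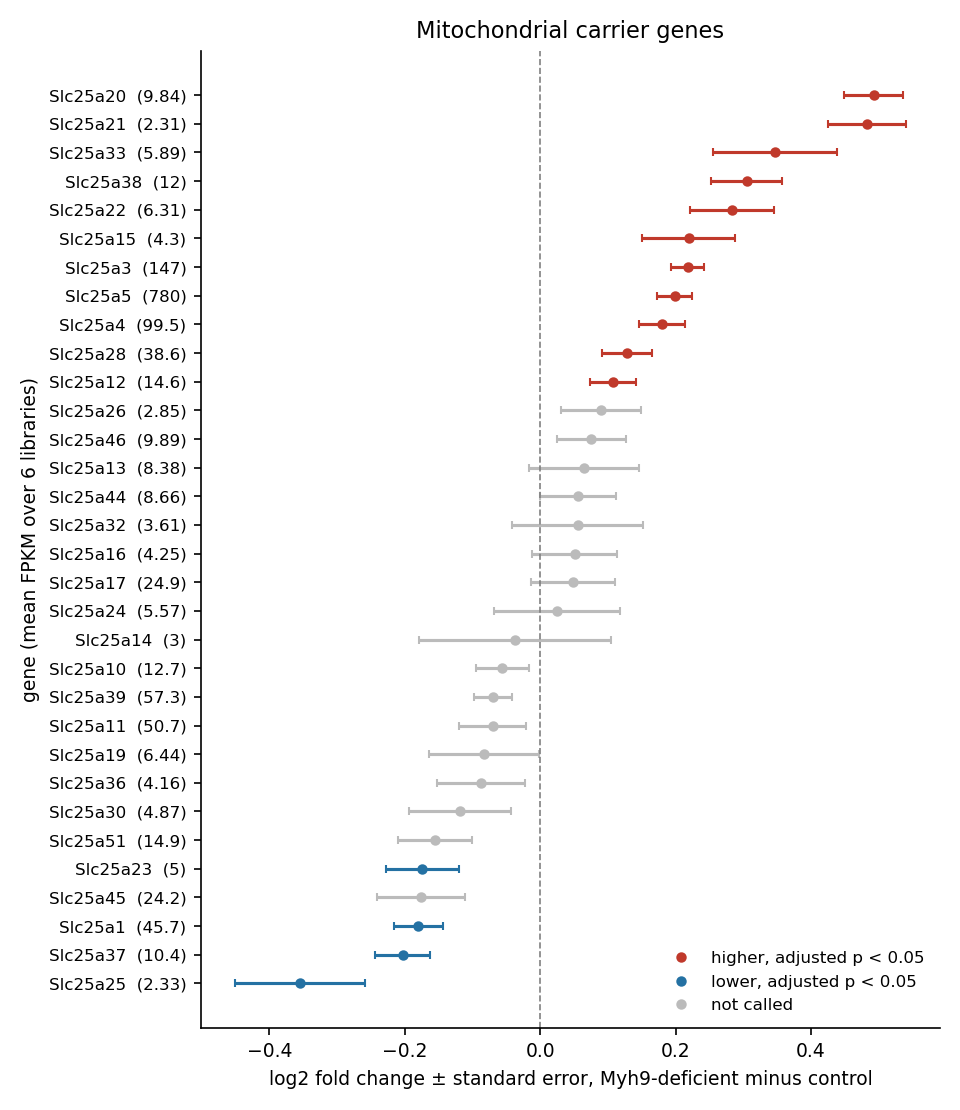
Log2 fold change on the log2(FPKM + 1) scale, *Myh9*-deficient minus control, for the 32 mitochondrial Slc25 members, with bars for the standard error and the mean FPKM over the 6 libraries in parentheses. The 3 most abundant genes, Slc25a5, Slc25a3 and Slc25a4, all lay above 0, and the 4 called lower ranged from -0.17 to -0.35.

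Of the 5 main families, metal carriers had the lowest share of calls, 2 of 20 higher and 2 lower (20%, against 40.5% of all genes tested). *Slc41a3* (chr6:90604725-90646412), a magnesium carrier, stood apart from the rest of the family at 6.08, 5.15 and 6.05 FPKM in control libraries and 9.83, 9.34 and 9.53 FPKM after deletion. The groups did not overlap, with means of 5.76 ± 0.531 and 9.57 ± 0.246 FPKM and a log2 fold change of 0.65 ± 0.064 (adjusted p = 4.76e-04). *Slc11a2*, which imports ferrous iron from the gut lumen and from endosomes, rose from 5.0, 5.57 and 5.71 to 6.08, 6.78 and 6.41 FPKM (0.21, adjusted p = 0.0338). That call was lost at 0.0647 to 0.0927 without control 1 or 2 or *Myh9*-deficient 2 or 3. *Slc31a2*, a copper carrier of endosomes and lysosomes, fell from 7.15, 5.97 and 5.43 to 4.18, 3.72 and 3.99 FPKM (-0.53, adjusted p = 0.00480), the control libraries varying more than the *Myh9*-deficient ones. *Slc48a1*, the haem carrier of lysosomes and the most abundant metal family gene, had means of 67.2 ± 1.37 and 64.7 ± 0.635 FPKM (-0.05, adjusted p = 0.146).

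Zinc carriers made up 14 of the 20. Of 10 importers of the Slc39 family, *Slc39a6* fell from 12.1 ± 0.535 to 10.5 ± 0.743 FPKM (-0.19, adjusted p = 0.0392), a call lost at 0.0574 to 0.118 without any 1 library other than *Myh9*-deficient 1. *Slc39a8* measured 2.08, 2.27 and 2.02 FPKM in control libraries and 2.13, 2.15 and 2.13 FPKM after deletion (0.01, adjusted p = 0.920). The 4 exporters of the Slc30 family had log2 fold changes of -0.05 to 0.08 (adjusted p = 0.232 to 0.990). Summed importers went from 91.5 ± 2.56 to 90.1 ± 0.396 FPKM. Of 8 zinc and copper response genes outside the carriers, 5 were tested and 4 were higher, against 19.9% of all genes tested. Among the 4 was *Mt1*, a metallothionein that binds both metals, at 120.1 ± 3.8 and 230.1 ± 7.26 FPKM (0.93, adjusted p = 1.00e-05). Iron handling genes were divided, with 6 of 13 tested higher and 4 lower, where 19.9% of all genes tested were higher and 20.6% lower. *Tfrc*, the transferrin receptor, rose from 16.3 ± 0.676 to 23.9 ± 1.53 FPKM (0.53, adjusted p = 5.50e-04). It is itself 1 of the 15 erythroid markers counted as higher, so the rise is not a separate observation. *Slc40a1*, the iron exporter ferroportin, was below the minimum for membership at 1.11 FPKM in control and 1.96 in *Myh9*-deficient LSKs.

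**Figure D4:**
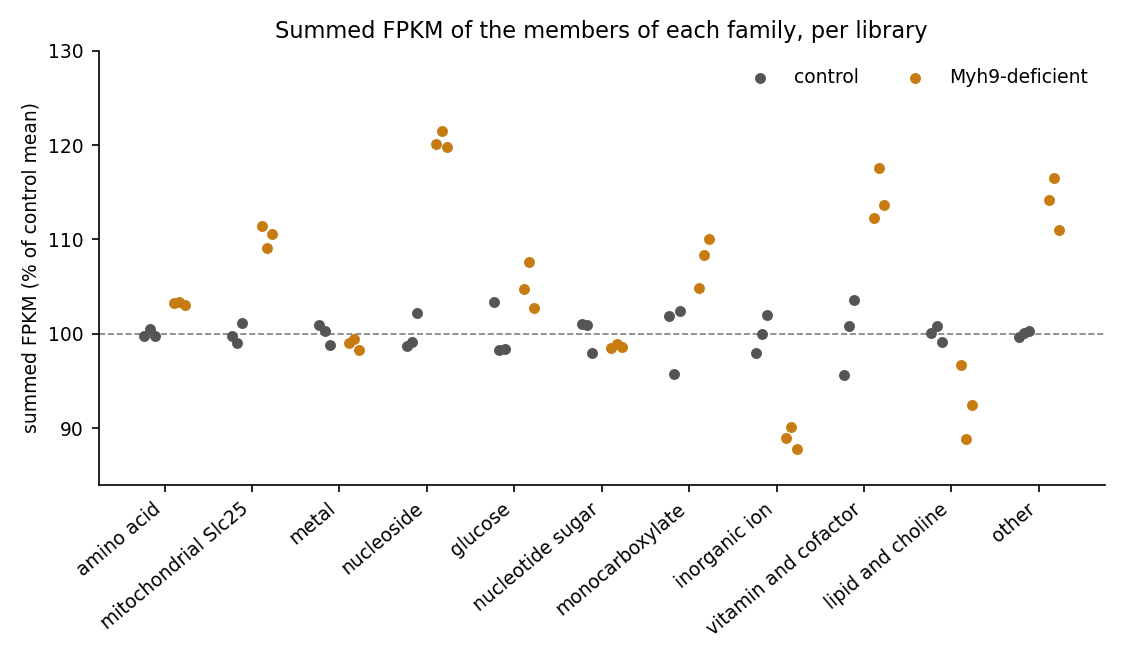
Summed FPKM of each substrate family in each of the 6 libraries, as a percentage of the control mean of that family. The nucleoside family stood highest above the control mean in *Myh9*-deficient libraries and the inorganic ion family lowest below it. The inorganic ion sum includes its most abundant member, Slc9a3r1, a scaffold protein rather than a carrier, which was itself lower.

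Carriers of inorganic ions held the largest fall among the members. *Slc8b1* (chr5:120511168-120534024), the exchanger that lets calcium out of mitochondria in return for sodium, measured 14.1, 14.2 and 14.3 FPKM in control libraries and 8.08, 8.95 and 9.28 FPKM after deletion. The control libraries were nearly equal and each *Myh9*-deficient library was far below them, so that the mean fell by 38.3%, with a log2 fold change of -0.64 ± 0.052 (adjusted p = 2.13e-04). It was the 1 member lower by over 1.5-fold on the log2(FPKM + 1) scale. In this family 2 of 13 were higher and 4 lower, and the sum went from 153 ± 3.07 to 136 ± 1.77 FPKM. That sum includes *Slc9a3r1*, its most abundant member, which is not a carrier and whose fall is given below. The phosphate importer *Slc20a1* rose from 6.84 ± 0.445 to 7.99 ± 0.323 FPKM (0.20, adjusted p = 0.0277, or 0.0632 to 0.0860 without control 1 or 2 or *Myh9*-deficient 1 or 3). The scaffold proteins that bind the sodium-proton exchanger moved in opposite directions, *Slc9a3r1* from 91 ± 2.33 to 80.3 ± 3.19 FPKM (-0.18, adjusted p = 0.00958) and *Slc9a3r2* from 2.05 ± 0.0882 to 2.7 ± 0.24 FPKM (0.28, adjusted p = 0.0198, or 0.0519 to 0.0647 without control 1 or 3 or *Myh9*-deficient 1 or 3).

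Vitamin and cofactor carriers were called in 4 of 6 cases, all higher and all by less than 0.30 on the log2 scale. Of all genes tested 19.9% were called higher. *Slc19a1*, the reduced folate carrier, rose from 16.2 ± 0.854 to 18.4 ± 0.614 FPKM (0.17, adjusted p = 0.0283). The thiamine carrier *Slc19a2* went from 3.1 ± 0.111 to 3.99 ± 0.364 FPKM (0.28, adjusted p = 0.0161) and the riboflavin carrier *Slc52a2* from 4.61 ± 0.445 to 5.74 ± 0.44 FPKM (0.27, adjusted p = 0.0320). Each of these 3 calls was lost without control 1, *Slc19a2* at 0.0541 and the others at 0.0662 to 0.0893 over the omissions that ended the call, which for *Slc19a1* also included control 2 and *Myh9*-deficient 2 or 3 and for *Slc52a2* control 2 and *Myh9*-deficient 1 or 2.

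In the nucleotide sugar family, which supplies the Golgi and endoplasmic reticulum with building blocks for glycans, 4 of 18 were higher and 4 lower. *Slc35d3* measured 2.29, 1.83 and 2.2 FPKM in control libraries and 3.92, 3.55 and 4.68 FPKM after deletion (log2 fold change 0.70 ± 0.10, adjusted p = 0.00231), and *Slc35f2* measured 2.02, 1.71 and 1.94 and 3.7, 3.41 and 2.81 FPKM (0.57, adjusted p = 0.00367). Neither pair of groups overlapped, and both genes were weakly expressed, *Slc35f2* with a control mean under 2 FPKM. *Slc35e3* and *Slc35e1* fell by 0.32 and 0.29 on the log2 scale, with calls lost at 0.0510 to 0.0679 for *Slc35e3* without any 1 control library or *Myh9*-deficient 1 and at 0.0572 to 0.0859 for *Slc35e1* without control 1 or 2 or *Myh9*-deficient 3. The most abundant gene of the family, *Slc35a4*, had means of 49.7 ± 0.91 and 50.8 ± 0.202 FPKM (0.03, adjusted p = 0.393).

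Of the 5 lipid and choline carriers, 2 fell. *Slc44a2*, a choline carrier-like protein, went from 18.7 ± 0.569 to 15.4 ± 0.456 FPKM (-0.27, adjusted p = 0.00209) and *Slc10a7*, of the bile acid carrier family, from 3.46 ± 0.315 to 2.67 ± 0.151 FPKM (-0.28, adjusted p = 0.0208, or 0.0552 to 0.0636 without control 1 or 2 or *Myh9*-deficient 1 or 2).

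The carriers outside these families included 4 that rose and 1 that fell, of 9. *Slc6a13*, a carrier of GABA and taurine, measured 6.3, 5.69 and 6.69 FPKM in control libraries and 10.7, 10.5 and 9.75 FPKM after deletion (log2 fold change 0.65 ± 0.064, adjusted p = 4.65e-04), with no overlap. The urea carrier *Slc14a1*, known from the red cell membrane, rose from 11.7 ± 0.63 to 14.9 ± 0.494 FPKM (0.32, adjusted p = 0.00248), beside the higher erythroid markers. *Slc22a3*, an organic cation carrier, rose from 18.9 ± 0.499 to 23 ± 1.08 FPKM (0.27, adjusted p = 0.00299). *Slc22a4*, which imports ergothioneine, fell from 8.08, 7.91 and 7.49 to 4.27, 4.98 and 5.75 FPKM (-0.56, adjusted p = 0.00344), beside the lower neutrophil and monocyte markers. Its *Myh9*-deficient libraries differed among themselves by more than the controls did.

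Transporters that belong to the solute carrier series under other symbols were counted as a separate list. Of 26 such genes 22 were tested, with 5 up and 5 down, and the median log2 fold change was 0.038. *Flvcr1*, the haem exporter and choline carrier, and *Spns2*, which exports sphingosine-1-phosphate, had log2 fold changes of 0.36 and 0.31, while those of *Magt1*, a magnesium carrier, *Sfxn2*, of the mitochondrial sideroflexins, and *Ctns*, the lysosomal cystine exporter, were -0.39, -0.29 and -0.24. Over all genes tested, 19.9% were higher and 20.6% lower.

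The 229 Slc genes below the minimum of 2 FPKM included 27 with a mean of at least 1 FPKM, of which 3 were higher and 2 lower, and 55 with no read in any library. Nearest to the minimum on the upper side were *Slc39a8* (mean 2.13 FPKM), *Slc23a2* (2.22) and *Slc35e2* (2.23), and on the lower side *Slc4a8* (1.99), *Slc22a17* (1.6) and *Slc35d2* (1.57).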

How the data were processed

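RNA was taken from LSK cells of 3 control and 3 *Myh9*-deficient sets, and libraries were made and sequenced by a company. Poly I:C was given in 2 doses by the sample descriptions and 3 by the methods. HISAT2 2.0.5 and mm10 are named in the submitters' processing notes, and the counting program and its strand setting are not given in the sources used here. The values the authors deposited were FPKM, scaled by a listed gene length and by library size.

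Multiplying FPKM by length gave whole reads (tolerance 0.05 reads) for 100% of values checked, and these reads gave the depth and 1 alternative test (voom). The main test was limma 3.58.1 (R 4.3.3, lmFit and eBayes with a trend, two-sided) on log2(FPKM + 1), a scale that understates changes of low genes, for the 11552 genes averaging 1 FPKM or more, with Benjamini-Hochberg adjustment over all of them. Fold changes in parentheses are on this log2 scale. A call was an adjusted p under 0.05. The test was checked on simulated data with known 2-fold changes and 1 fixed spread for all genes. It called 94.7% of the changed genes and 0.0974% of the unchanged ones. Smaller changes, such as those of most members, were not simulated, so the check does not cover them. The labels do not say that libraries came from separate animals, so p-values measure the spread between these libraries. Counting error only is covered by read numbers, since reads carry no molecular identifiers.

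The groups differed in the presence of Cre and in nothing else the labels give. The members, the substrate families, the gene lists and the rule for named genes were chosen with earlier results of these data known. By that rule the text names, in each family, the most abundant member and the largest called rises and falls (up to 3 in the 5 main families, up to 2 elsewhere), and 18 genes fixed by role, of which *Slc30a1*, *Slc4a1* and *Slc7a11* were also below 2 FPKM. Genes named beyond the rule were *Slc25a3*, *Slc25a4*, *Slc38a10*, *Slc15a4* and *Slc16a10*, chosen after their values were seen, and a member that the rule names is not reported here. Identifiers and exons came from GENCODE M21, in which 132 of the 142 members had the coordinates of the table, and promoters from RefSeq. Exons of 14 members overlap another tested gene, 1 of them (*Slc16a6*) by over 20%.

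Replicate numbers did not pair the samples. Alternatives were another pseudocount, other filters, scalings and variance estimates, removal of GC and length trends, a replicate block, a 1.5-fold minimum, voom and the omission of each library, and 2 added after seeing the data.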

Additional observations from a re-analysis of the deposited data

How the results depend on the processing

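Of 922 values of the 55 members picked by the naming rule under an alternative, 817 kept the call and the sign, 97 lost the call (61 of them when 1 library was left out) and 3 gained it, and 31 of the 49 called genes were called in every setting with a value. The gains were *Slc48a1* (adjusted p = 0.0262 after quantile normalization and 0.0425 after rescaling to the same sum, both limma) and *Slc16a1* (0.0488 without *Myh9*-deficient replicate 1). Signs turned for genes that were not called, at -0.0269 for *Slc50a1* (GC and length trends removed), -0.0170 for *Slc35a4* (quantile), and for *Slc39a8* at -0.00576 (same sum) and within the range of -0.0148 to 0.0418 found on leaving out 1 library, which was below 0 without control 1 (-0.000385) or control 3.

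With a minimum change of 1.5-fold the counts were 5 members higher and 1 lower, with amino acid carriers 1 and 0, glucose 0 and 0, Slc25 0 and 0, metal 1 and 0, and nucleoside 1 and 0. With no filter on low values, Slc25 carriers had 7 higher and 2 lower and metal carriers 1 and 1, and a filter at 5 FPKM left 0 glucose carriers lower because *Slc2a6* was then not tested. Without moderation of the variance, 2 Slc25 carriers were lower, metal carriers had 1 higher and 1 lower, and 1 nucleoside carrier was lower, and removal of GC and length trends left 1 metal carrier lower. Voom on recovered reads gave 45 members higher and 28 lower, with 6 Slc25 carriers lower and 3 metal carriers higher. Quantile normalization gave 3 metal carriers lower, and rescaling to the same sum gave 6 Slc25 and 3 metal carriers lower. Restricting to members with at least 2 FPKM in each group gave 38 higher and 26 lower, and leaving out the 4 that are not carriers 39 and 26.

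Leaving out 1 library at a time gave 25 to 31 members higher (25 without control 1) and 18 to 24 lower (18 without control 1), 4 to 7 amino acid carriers higher (4 without control 1 or 3) and 7 lower throughout, 8 to 10 Slc25 carriers higher and 2 to 4 lower (2 without control 1 or 2), 1 to 2 metal carriers in each direction, and 1 to 2 nucleoside carriers in each direction. Over all genes tested the same omissions gave 1784 to 2043 higher and 1758 to 2065 lower, against 2295 and 2378 with every library. The replicate numbers of the groups did not pair the samples, since the deviations of same-numbered libraries correlated at -0.0046, -0.0112 and -0.0262, and a fit with the replicate block gave 33 members higher and 25 lower, amino acid carriers 6 and 7, glucose 2 and 1, Slc25 9 and 4, metal 2 and 2, and nucleoside 2 and 2. The member with the fewest reads had 82 in its lowest library. With 3 libraries in each group an exact permutation test cannot go below 0.1 for a single gene.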
